A study of Rattus norvegicus with 12 samples.

Results

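Oligodendrocyte precursor and lineage genes were followed in cultured rat hippocampus after neutralization of Nogo-A, a membrane protein of oligodendrocytes and neurons that limits neurite growth. The genes were Pdgfra, Ptprz1, Cspg4, Olig1, Olig2, Sox10, Gpr17 and Nkx2-2, chosen by name as markers of this lineage. Earlier results of these data were known when they were chosen, so their counts beside shares of all probe sets are descriptions only. A probe set, the group of probes that reports 1 transcript on the array, was used where the platform annotation gives it exactly 1 of these symbols. That left 9 probe sets for 7 of the 8 genes, out of 31042 probe sets measured. Ptprz1 and Olig2 had 2 probe sets each and Pdgfra, Cspg4, Olig1, Sox10 and Nkx2-2 had 1 each, while Gpr17 was not analysed here.

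RNA came from organotypic slices of the hippocampus of Wistar rats taken at postnatal day 7 and kept 26 days in vitro. The 4 groups were 7B12, a mouse monoclonal antibody against amino acids 763 to 820 of rat Nogo-A; 11C7, a mouse monoclonal against amino acids 623 to 640; IgG, a control monoclonal against wheat auxin; and NT, which received no antibody. Each antibody was given at 3 µg/ml from day 21 in vitro for 5 days, with the medium changed every 2 days, so the 3 antibody groups share added immunoglobulin and NT does not. Each group had 3 replicates on 1 array each, a replicate being RNA pooled from 24 cultures, and by the design text the replicates were separate cultures from different animals. With 12 arrays in all, precision is set by their number.

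The deposited values are ratios of each probe set to a reference of its own. They carry no absolute level, so a gene cannot be ranked against another gene and the presence of the lineage cannot be checked from a level. A log2 value below is the log2 of the deposited ratio less the median of its array, and a log2 difference is a difference between group means of these values, with its standard error (SE) from limma. "Controls" means the average of the NT and IgG means. In pooled tissue RNA, fewer cells of a type and less RNA per cell cannot be told apart. Among the 11C7 arrays, replicate 1 stands apart: the acute-phase gene Saa3 had log2 values of 6.52, 4.40 and 7.17 in 7B12, 6.62, 0.02 and 0.61 in 11C7, and -2.17 to 0.06 in the 6 control arrays. The main results that rest on 11C7 are therefore also given without that array.

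Oligodendrocyte precursors are dividing glial cells that stay in the brain throughout life and mature into the cells that make myelin. Platelet-derived growth factor, acting through the receptor encoded by Pdgfra, keeps them dividing, and Cspg4 (the NG2 proteoglycan) and the receptor phosphatase Ptprz1 are further surface proteins of these cells. The transcription factors Olig1, Olig2, Sox10 and Nkx2-2 specify the lineage and drive its differentiation, and Sox10 stays on in myelinating cells. The membrane receptor Gpr17 marks a passing stage between precursor and mature cell. None of these markers is exclusive in the slice, since fibroblasts also use Pdgfra, mural cells of vessels Cspg4, and astrocytes Ptprz1.

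Pdgfra, Olig2 and Nkx2-2 were the genes with a probe set on which all 3 arrays of 7B12 lay below all 3 of 11C7, and for that reason the 250 bases before 1 transcript start of each are shown here, 5′ to 3′ on the strand of the gene, from RefSeq (build GRCr8). For Nkx2-2 that start lies inside the annotated gene, so the whole window does too, and the window of Pdgfra overlaps its gene in part. Capitals mark the E-box CANNTG, the motif bound by basic helix-loop-helix factors such as Olig1 and Olig2.
Pdgfra, chr14:33408517-33408766, minus strand: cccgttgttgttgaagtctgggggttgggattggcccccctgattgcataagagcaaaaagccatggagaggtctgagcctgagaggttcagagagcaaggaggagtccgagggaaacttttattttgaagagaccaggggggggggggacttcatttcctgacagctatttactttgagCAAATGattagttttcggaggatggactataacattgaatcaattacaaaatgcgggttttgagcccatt
Olig2, chr11:43961335-43961584, plus strand: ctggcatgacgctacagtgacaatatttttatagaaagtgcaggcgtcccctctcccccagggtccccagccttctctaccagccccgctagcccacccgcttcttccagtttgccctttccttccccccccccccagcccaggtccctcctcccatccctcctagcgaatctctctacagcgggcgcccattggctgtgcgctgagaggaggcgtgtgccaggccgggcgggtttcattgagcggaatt
Nkx2-2, chr3:155075623-155075872, minus strand: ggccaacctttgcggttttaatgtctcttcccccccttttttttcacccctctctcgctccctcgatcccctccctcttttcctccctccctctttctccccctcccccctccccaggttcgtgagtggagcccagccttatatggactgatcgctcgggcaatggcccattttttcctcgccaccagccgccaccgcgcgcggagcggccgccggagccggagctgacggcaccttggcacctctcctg
An E-box was found in 1 of these 3 windows, CAAATG in that of Pdgfra, whose bases lie 70 to 65 before the start. Of 33469 RefSeq windows of 250 bases, 65.5% hold an E-box. The motifs ACAAAG and ACAATG, which Sox factors bind, were searched on both strands and were in none of the 3 windows, against 16.3% and 11.1% of all windows. These matches describe letters in a short window and not binding. Olig1 and Olig2 are neighbours on chromosome 11, with 0 protein-coding genes between them.

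With 7B12, 8 of the 9 probe sets had a mean below the controls, with Sox10 the exception, and the median log2 difference was -0.14, against 0.0026 over all 31042 probe sets. Below 0 lay 49.7% of all probe sets. None of the 9 passed an adjusted p of 0.05, and 0 of 31042 (0%) passed over the whole table. At an unadjusted p under 0.05, 2 of 9 were lower, Pdgfra and a Ptprz1 probe set, where 2.12% of all probe sets were lower, and 0 of 9 were higher, where 3.09% were. The SE of the lineage probe sets had a median of 0.19, against 0.34 over all probe sets, so these genes varied less between replicates than the typical probe set. With each array left out in turn, 6 to 8 of 9 lay below the controls and 0 to 2 of 9 had an unadjusted p under 0.05 and were lower.

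Pdgfra, the receptor gene of the growth factor that sustains precursors, had log2 values of -0.14, -0.73 and -0.13 in 7B12 replicates 1, 2 and 3. It had 0.03, 0.22 and 0.29 in 11C7, 0.02, -0.0046 and 0.29 in IgG, and 0.13, -0.16 and 0.34 in NT. All 3 values of 7B12 were below those of IgG and 11C7, and only NT 2 reached into their range. The difference between 7B12 and the controls was -0.44 ± 0.19 (SE), 1.35-fold lower, with a 95% confidence interval of -0.87 to -0.011 (limma, unadjusted p = 0.0454, adjusted p = 0.944). Against the IgG arrays alone the difference was -0.44 ± 0.22 (limma, unadjusted p = 0.0757). Set against the NT and IgG arrays of its own number, 7B12 stood at -0.21, -0.65 and -0.45, below both controls in 3 of 3 numbers. Without 7B12 replicate 2 the difference from the controls was -0.24, so its size rests in part on that array.

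Ptprz1 encodes a receptor phosphatase whose ligands include pleiotrophin and midkine. Its probe set 1388015_at had log2 values of -0.27, -0.26 and -0.42 in 7B12, -0.46, 0.12 and 0.08 in 11C7, 0.06, 0.06 and 0.32 in IgG, and 0.14, 0.03 and 0.15 in NT. Every 7B12 array was below every control array, and so was 11C7 1, while 11C7 2 and 3 were among the controls. The difference between 7B12 and the controls was -0.44 ± 0.17, 1.36-fold lower (95% confidence interval -0.81 to -0.072, limma, unadjusted p = 0.0240, adjusted p = 0.861). The other probe set of Ptprz1, 1368350_at, differed less: its log2 values were 0.20, -0.14 and -0.25 in 7B12, 0.20, -0.08 and 0.06 in 11C7, 0.15, 0.01 and 0.02 in IgG, and 0.19, 0.04 and 0.05 in NT. There the difference was -0.14 ± 0.15 (limma, adjusted p = 1.00) and 7B12 1 was the highest of the 3 arrays of its group. The Ptprz1 probe sets had a Pearson r of 0.15 over the 12 arrays, and what part of the transcript each reads was not examined.

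Olig1, a transcription factor gene needed for maturation and repair of myelin in mice, had log2 values of -0.04, -0.09 and -0.08 in 7B12, -0.05, 0.31 and 0.31 in 11C7, 0.13, -0.01 and 0.34 in IgG, and 0.08, 0.07 and 0.27 in NT. The 7B12 arrays lay close together and below all 6 control arrays, although IgG 2 was near them. The difference was -0.22 ± 0.15, 1.16-fold lower (limma, unadjusted p = 0.179, adjusted p = 1.00). Ptprz1 1388015_at and Olig1 were thus the 2 of 9 probe sets with all 7B12 arrays below all controls, where 1.11% of all probe sets showed this. Against the controls of the same number, Pdgfra, Ptprz1 1388015_at and Olig1 made 3 of 9 with 7B12 below both in all 3 numbers, where 7.38% of all probe sets did. No lineage probe set was above both controls in all 3 numbers with 7B12, where 8.07% of all were.

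**Figure D1:**
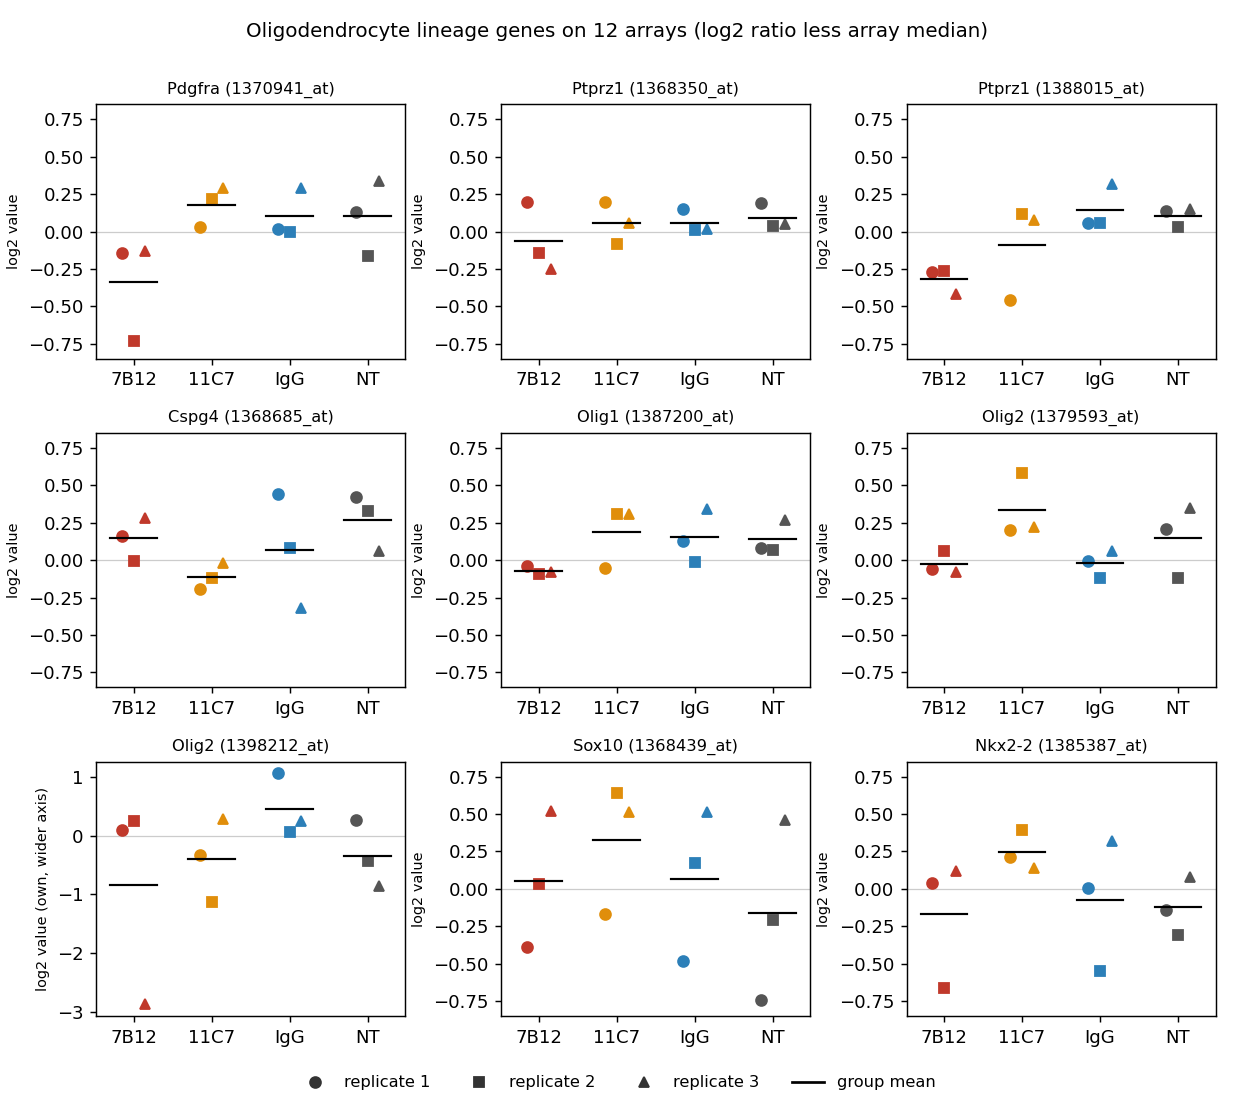
Log2 values (log2 ratio less array median) of the 9 probe sets in each of the 12 arrays, by group; the marker shape gives the replicate number and the black line the group mean. In Ptprz1 1388015_at and Olig1 the 3 arrays of 7B12 lie below all 6 control arrays, and Olig2 1398212_at has its own, wider axis because 7B12 3 stands at -2.87.

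The remaining probe sets stood near the controls with 7B12 or were too variable to place. Olig2, which specifies the lineage together with Olig1, was read by 1379593_at at log2 values of -0.06, 0.06 and -0.08 in 7B12, 0.20, 0.58 and 0.22 in 11C7, -0.0059, -0.12 and 0.06 in IgG, and 0.21, -0.12 and 0.35 in NT. Here the 7B12 values lay within the range of the controls and the difference was -0.09 ± 0.16. Probe set 1398212_at of Olig2 spread from -2.87 in 7B12 3 to 1.06 in IgG 1, with 0.10 and 0.24 in the other 7B12 arrays. Its difference of -0.90 ± 0.67 rested on that array and was 0.11 without it. The Olig2 probe sets had r = -0.11 over the 12 arrays, so no direction is given for Olig2 from 1398212_at.

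Cspg4, the NG2 proteoglycan gene, had log2 values of 0.16, -0.0047 and 0.28 in 7B12, -0.19, -0.12 and -0.02 in 11C7, 0.44, 0.08 and -0.32 in IgG, and 0.42, 0.33 and 0.06 in NT. With 7B12 the difference from the controls was -0.023 ± 0.19, and the IgG arrays alone spanned the values of all other groups. Nkx2-2, a homeodomain factor gene that promotes differentiation of precursors, had log2 values of 0.04, -0.66 and 0.12 in 7B12, 0.21, 0.39 and 0.14 in 11C7, 0.0044, -0.55 and 0.32 in IgG, and -0.14, -0.31 and 0.08 in NT. Its 7B12 difference was -0.065 ± 0.24. In 7B12, IgG and NT the array numbered 2 was the lowest of its group, and in 11C7 it was the highest.

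**Figure D2:**
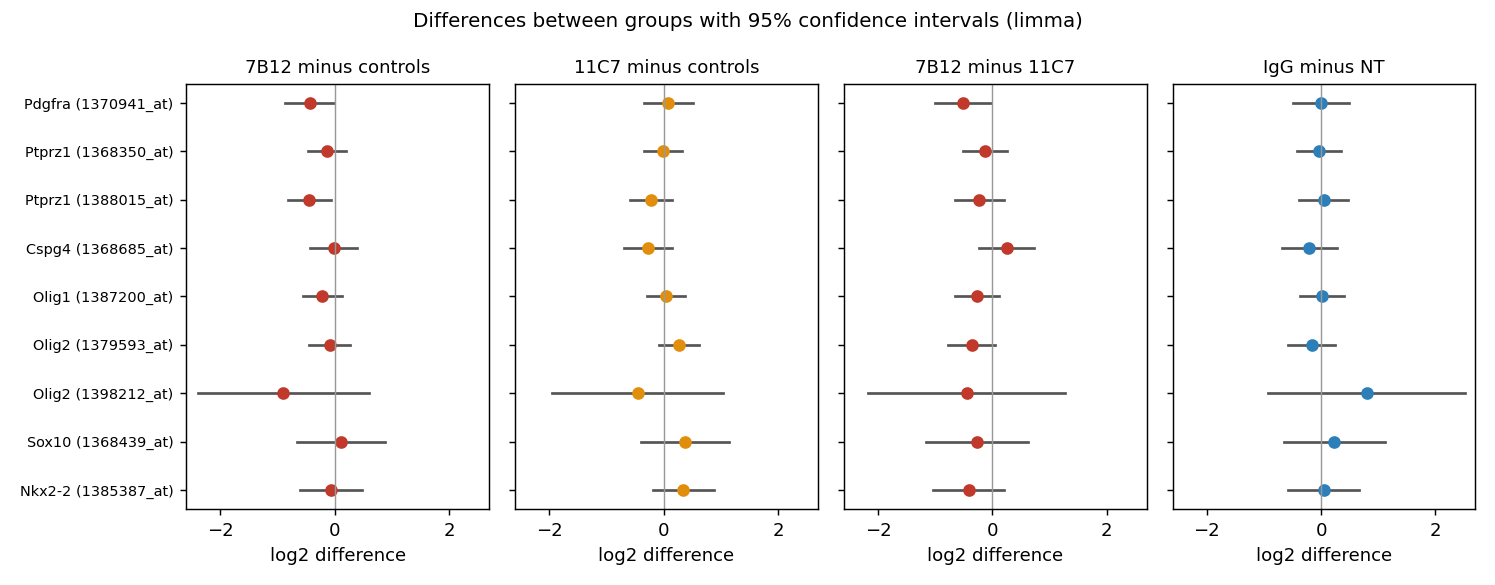
Log2 difference of each probe set in 4 contrasts (points) with the 95% confidence interval from limma (lines), all on the same axis. The intervals of Pdgfra and Ptprz1 1388015_at for 7B12 minus controls lie below 0 before adjustment over 31042 probe sets, and none passed after it.

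With 11C7 the same genes did not stand apart from the controls in any common direction. Below the controls lay 4 of 9 probe sets and above them 5 of 9, with a median log2 difference of 0.045, against 0.0097 over all probe sets, of which 48.5% lay below 0. None of 9 passed after adjustment (0% of all probe sets), and 0 of 9 had an unadjusted p under 0.05, where 3.22% of all had. The largest differences were 0.37 ± 0.34 in Sox10, 0.35 ± 0.24 in Nkx2-2, -0.27 ± 0.19 in Cspg4 and 0.27 ± 0.16 in Olig2 1379593_at, leaving aside the variable Olig2 probe set (-0.45 ± 0.67). Pdgfra stood at 0.079 ± 0.19, with a 95% confidence interval of -0.35 to 0.51. Without 11C7 1 the difference was 0.62 in Sox10, 0.34 in Olig2 1379593_at and -0.030 in Ptprz1 1388015_at, which had been -0.22 ± 0.17 with it, and 0 of 9 passed. Without 11C7 2 it was 0.14 in Olig2 1379593_at and 0.22 in Sox10. Nkx2-2 ranged from 0.23 to 0.45 and Cspg4 from -0.37 to -0.18 over all 12 ways of leaving out an array. Leaving out any array makes the groups uneven in the replicate numbers, by which Sox10 differed most.

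The direct comparison of the antibodies gave 8 of 9 probe sets a lower mean in 7B12 than in 11C7, with Cspg4 the exception. The median log2 difference was -0.27, against 0.0035 over all probe sets, of which 49.6% lay below 0. All 3 arrays of 7B12 lay below all 3 of 11C7 in Pdgfra, Olig2 1379593_at and Nkx2-2, that is 3 of 9, where 3.41% of all probe sets did. In Cspg4 they lay above, 1 of 9, where 3.89% of all did. The difference was -0.52 ± 0.22 in Pdgfra (1.43-fold lower, limma, unadjusted p = 0.0417, adjusted p = 1.00), -0.36 ± 0.18 in Olig2 1379593_at, -0.41 ± 0.28 in Nkx2-2 and 0.25 ± 0.21 in Cspg4. None passed after adjustment, nor did any of the 31042 probe sets (0%). At an unadjusted p under 0.05, 1 of 9 was lower, where 1.23% of all were. Number by number, 7B12 stood -0.17, -0.95 and -0.43 from 11C7 in Pdgfra, -0.26, -0.52 and -0.30 in Olig2 1379593_at, and -0.17, -1.04 and -0.02 in Nkx2-2, so the arrays numbered 2 were the farthest apart in each. Without 7B12 2 the difference was -0.32 in Pdgfra and -0.16 in Nkx2-2. Olig2 1379593_at stood at -0.23 without 11C7 2. Without 11C7 1, 0 of 9 passed and the median over the 7 genes was -0.42, with 6 of 7 below 0.

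Neither the control antibody nor the average of both antibodies gave a lineage gene that passed. IgG was above NT in 6 of 9 probe sets, with a median log2 difference of 0.014, and 51.3% of all probe sets lay below 0. In 8 of 9 the difference lay between -0.21 (Cspg4) and 0.23 (Sox10), the variable Olig2 probe set standing at 0.80 ± 0.77, and 0 of 9 passed (0% of all; 0 of 9 at an unadjusted p under 0.05, where 2.32% of all had one). The mean of both antibodies was below the controls in 6 of 9 probe sets (50.3% of all), with Ptprz1 1388015_at at -0.33 ± 0.14 (limma, unadjusted p = 0.0359, adjusted p = 1.00) as the 1 of 9 with an unadjusted p under 0.05, where 4.32% of all probe sets had one and 0% passed. Without 11C7 1 this Ptprz1 difference was -0.24, and 0 of 9 were lower at an unadjusted p under 0.05. By the F test over the 4 groups 0 of 9 had an unadjusted p under 0.05 (3.54% of all) and 0% of all passed after adjustment. The rule stated for the study, a one-way analysis of variance at an unadjusted p of 0.05 with a 1.2-fold change, took 0 of 9 lineage probe sets and 2.99% of all.

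By group means, Pdgfra was lowest in 7B12 (-0.33 ± 0.34, SD, n = 3) and Olig1 was too (-0.07 ± 0.03), with 11C7 (0.18 ± 0.13 and 0.19 ± 0.21), IgG (0.10 ± 0.16 and 0.15 ± 0.18) and NT (0.10 ± 0.25 and 0.14 ± 0.11) within their spread of each other. Ptprz1 1388015_at was also lowest in 7B12 (-0.32 ± 0.09), then 11C7 (-0.09 ± 0.32), with IgG (0.15 ± 0.15) and NT (0.11 ± 0.06) within their spread. Olig2 1379593_at averaged -0.03 ± 0.07 in 7B12, 0.33 ± 0.21 in 11C7, -0.02 ± 0.09 in IgG and 0.15 ± 0.24 in NT, so 7B12 and IgG did not differ beyond their spread. Cspg4 averaged 0.14 ± 0.14 in 7B12, -0.11 ± 0.09 in 11C7, 0.06 ± 0.38 in IgG and 0.27 ± 0.19 in NT, the IgG arrays overlapping every other group. Nkx2-2 and Sox10 were highest in 11C7 (0.25 ± 0.13 and 0.33 ± 0.43), yet the other groups differed from it by less than their own SDs in Sox10.

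Sox10, which switches on myelin genes directly, differed far more between replicate numbers than between groups. Its log2 values were -0.39, 0.03 and 0.52 in 7B12, -0.17, 0.64 and 0.51 in 11C7, -0.48, 0.17 and 0.51 in IgG, and -0.74, -0.21 and 0.46 in NT. The arrays numbered 1 lay between -0.74 and -0.17 and those numbered 2 between -0.21 and 0.64, so only NT 2 reached into the range of number 1, and the 4 arrays numbered 3 lay between 0.46 and 0.52. Of its sum of squares over the 12 arrays, 76.9% lay between numbers and 15.2% between groups. Over all probe sets these shares had medians of 35.2% and 18.3%. For Pdgfra they were 28.3% and 52.4%, for Ptprz1 1388015_at 8.6% and 59.2%, for Olig1 23.9% and 41.5%, and for Olig2 1379593_at 1.2% and 52.6%. Sox10 with 11C7 was above both controls of its number in 3 of 3, by 0.44, 0.66 and 0.03 over their mean; this held in 1 of 9 probe sets and in 4.5% of all.

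**Figure D3:**
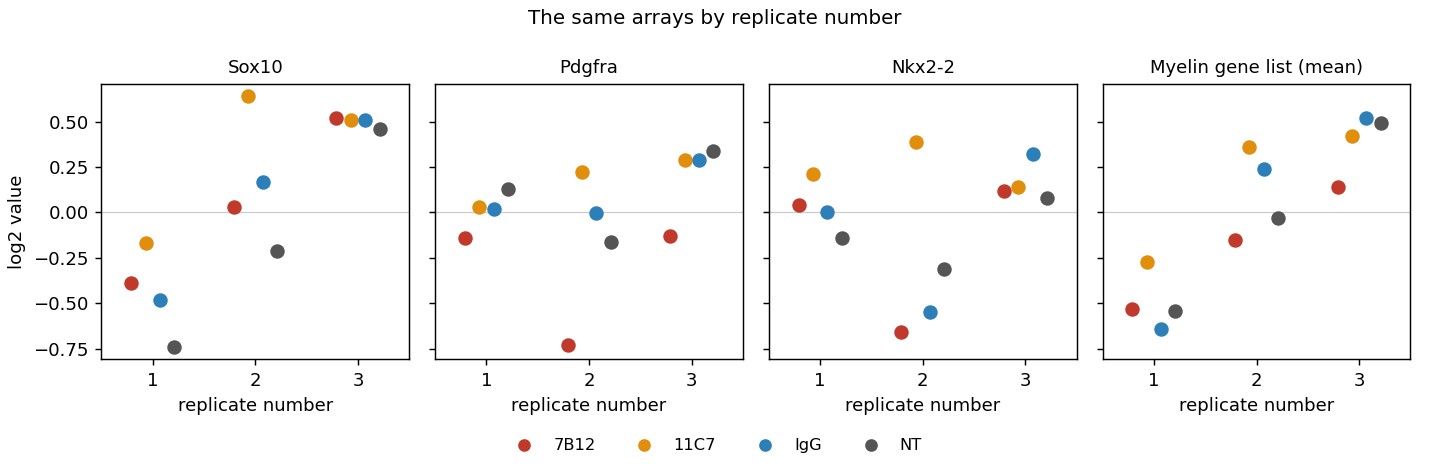
Log2 values of Sox10, Pdgfra and Nkx2-2, and the mean log2 value of the myelin gene list, for each array by replicate number, coloured by group. Sox10 and the myelin list are low in arrays numbered 1 and high in those numbered 3, while Pdgfra is lowest in 7B12 within each number.

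Sox10 ran with the mature end of the lineage. Over the 12 arrays its log2 value had a Pearson r of 0.93 with the mean of the mature oligodendrocyte and myelin genes, 0.85 with that of the newly forming oligodendrocyte genes and 0.20 with the other precursor genes. It had an r nearly as far from 0 with lists of other kinds, at -0.79 with the ligands and receptors and -0.79 with the fibroblast and meningeal markers. With the general neuron markers r was 0.52. How much of each r lies in the replicate numbers was not separated. Among the lineage genes, Olig1 had r = 0.78 with Pdgfra, 0.81 with Ptprz1 1388015_at and 0.60 with Olig2 1379593_at, and Nkx2-2 had r = 0.71 with Pdgfra. Cspg4 ran against Sox10 (r = -0.62), with r from -0.40 to 0.13 to the other probe sets. These are descriptions over 12 arrays that share replicate numbers and, within a group, treatment. The genes on the arrays most like a member over the 12 arrays were Apln (r = 0.96) and Serpinf1 (0.94) for Pdgfra, Tspan8 (0.91) and Alpk3 (0.90) for Olig1, and Riox1 (0.93) and Snx4 (0.92) for Nkx2-2. A gene with 2 probe sets was taken as their mean. Dvl3 and Pla2g2d (0.95 each) were most like the Olig2 mean. That mean follows mostly the variable 1398212_at, with an SD of 1.00 over the 12 arrays against 0.21 for 1379593_at. For Sox10 they were Ppp1r16b (0.98) and Gltp (0.97), for Cspg4 Tbx3 (0.93) and Ccdc180 (0.86), and for Ptprz1 Drc3 (0.93) and Elovl2 (0.92).

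The wider lineage was described by gene lists, also chosen with earlier results of these data known. The probe sets of a gene were averaged on the log2 scale and 14217 genes were fitted. No gene of any lineage list passed in any contrast. In 7B12, 14 of 16 other precursor genes lay below the controls (median log2 difference -0.13), and so did 12 of 14 genes of newly forming oligodendrocytes (-0.11) and 16 of 21 of mature oligodendrocytes and myelin (-0.19), where 47.9% of all genes did. At an unadjusted p under 0.05, 0 of 16, 0 of 14 and 1 of 21 of these were lower, where 2.14% of all genes were. The retinaldehyde-binding protein gene Rlbp1 (-0.41 ± 0.20) and the kainate receptor gene Grik1 (-1.70 ± 0.94) had the smallest p of the precursor list, and the carbonic anhydrase gene Car2 (-0.62 ± 0.21, limma, adjusted p = 0.629) and Ermn, which encodes a myelin-sheath cytoskeletal protein (-0.56 ± 0.47), those of the myelin list. Number by number, the mean of the other precursor genes stood -0.22, -0.16 and -0.36 from the controls, below in 3 of 3. The myelin mean stood 0.06, -0.26 and -0.37 from them, so 7B12 1 was not below. Without 7B12 1, 10 of 21 myelin genes lay below the controls (median 0.018). The 7B12 group then lacked the number at which that list is lowest. In a fit blocked by number, chosen after seeing the data, the median without 7B12 1 was -0.29. The other precursor genes had 10 to 14 of 16 and the newly forming genes 10 to 13 of 14 below with any array left out. Grik1 stood at -0.43 without 7B12 1, Rlbp1 at -0.25 without 7B12 2 and Ermn at -0.33 without 7B12 1.

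Of the ligands and receptors that act on precursors, 9 of 14 lay below the controls in 7B12 (median -0.038), where 47.9% of all genes did. With an array left out, 5 to 12 of 14 did, so by count of genes the list had no settled direction. Its mean stood -0.27, -0.19 and -0.19 from the controls of numbers 1, 2 and 3. Igf1, whose product is a growth factor that supports survival and maturation of the lineage, had the smallest p at -1.58 ± 0.32, 0.335 of the control level (limma, unadjusted p = 0.000712, adjusted p = 0.401). Without 11C7 1, which enters this contrast only through the shared estimate of the spread, Igf1 passed (limma, adjusted p = 0.0420). It was the only listed lineage gene to do so in any contrast. With that array left out, 10 of all 31042 probe sets passed for 7B12 minus controls. The share of all genes that passed in that fit is not given here, so the Igf1 pass cannot be set against it. Mdk, the gene of the Ptprz1 ligand midkine, stood at -0.23 ± 0.12. Of the lineage transcription factors and regulators, 20 of 32 lay below (median -0.060), where 47.9% of all genes did. At an unadjusted p under 0.05, 3 of 32 were lower, where 2.14% of all genes were. Dll1, a Notch ligand gene (-1.03 ± 0.36), and Bmp4, a growth factor gene known to hold back differentiation (-0.49 ± 0.18), led them (limma, adjusted p = 0.649 and 0.691). Without 7B12 2 Dll1 stood at -0.47.

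Between the antibodies the mature genes were uniform in sign when all arrays were used. All 21 of 21 mature oligodendrocyte and myelin genes and 13 of 14 genes of newly forming oligodendrocytes were lower in 7B12 than in 11C7, by medians of -0.32 and -0.31, against 11 of 16 other precursor genes (-0.19), 18 of 32 transcription factors and regulators (-0.12) and 9 of 14 ligands and receptors (-0.11). Of all 14217 genes 51.2% were lower, and genes of myelin vary together, so these counts are not independent. At an unadjusted p under 0.05, 1 of 21 myelin genes, 0 of 14 newly forming genes, 0 of 16 other precursor genes, 3 of 32 regulators and 1 of 14 ligands and receptors were lower, where 1.21% of all genes were, and none passed (0%). The ligand was Igf1, at -1.21 ± 0.37, and -1.66 without 11C7 1. Within numbers the myelin mean of 7B12 stood -0.26, -0.51 and -0.28 from 11C7, and the mean of newly forming genes -0.22, -0.43 and -0.31, below in 3 of 3. Without 11C7 1, 21 of 21 myelin genes (median -0.61), 13 of 14 newly forming genes and 11 of 16 other precursor genes lay below. So did 20 of 32 regulators (-0.077) and 7 of 14 ligands and receptors (0.0078). The 11C7 group then lacked the number at which the myelin list is lowest and the ligand list highest. In a fit blocked by number, chosen after seeing the data, the medians were -0.30 for myelin genes, -0.14 for regulators and -0.13 for ligands and receptors. With all arrays, the ligand mean of 7B12 stood -0.07, -0.28 and -0.14 from 11C7 within numbers 1, 2 and 3. Without 11C7 3, 16 of 21 myelin genes and 12 of 14 newly forming genes were lower, and without 7B12 1, 16 of 21 and 14 of 14. Car2 (-0.70 ± 0.24), Fa2h, which makes hydroxylated myelin lipids (-0.47 ± 0.29), Enpp6, an enzyme gene of newly forming oligodendrocytes (-0.80 ± 0.49), Zfp488, an oligodendrocyte transcription factor gene (-0.83 ± 0.24), and Bmp4 (-0.69 ± 0.21) had among the smallest p of their lists. Fa2h stood at -0.64 without 11C7 1 and -0.31 without 11C7 3.

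In 11C7, 20 of 21 myelin genes and 11 of 14 newly forming genes lay above the controls (medians 0.20 and 0.15), where 43.9% of all genes lay below 0, and 10 of 16 other precursor genes lay below (-0.052). None passed (0% of all genes). Number by number, the myelin mean stood 0.32, 0.25 and -0.09 from the controls. Without 11C7 1, 19 of 21 myelin genes lay above (median 0.40, and 0.10 with the replicate block), 13 of 14 newly forming genes lay above (0.13), and 8 of 16 precursor genes lay below (-0.0077). Without IgG 1, which had the lowest mean of that list (-0.64), 10 of 21 myelin genes lay below (median 0.011). The list then had no clear direction against the controls in the unblocked fit. With the replicate block the median without IgG 1 was 0.099. The hedgehog effector gene Gli1 (-2.26 ± 0.53) and the homeodomain gene Nkx6-1 (-1.41 ± 0.60) were lower at an unadjusted p under 0.05, 2 of 32 regulators, where 1.86% of all genes were lower. Without 11C7 1 Gli1 stood at -2.22 and Nkx6-1 at -0.99, and Nkx6-1 at -2.11 without 11C7 2. Gli1 also lay below the controls with 7B12 (-1.86 to -0.61 with 1 array left out) and below NT with IgG (-1.02 ± 0.61). Nkx6-1 lay above NT with IgG (0.92 ± 0.69).

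**Figure D4:**
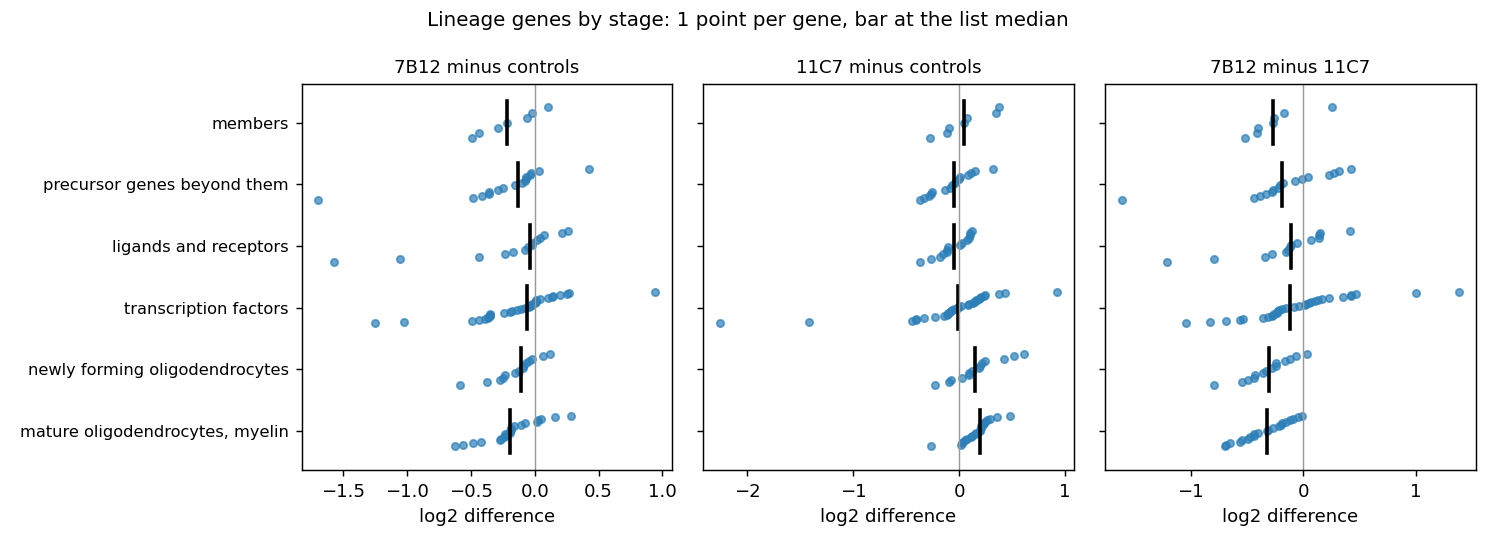
Log2 difference of each listed gene (points) in 3 contrasts, by lineage list, with the 7 genes of the report in the top row (members) and a bar at the median of each list; the 3 axes differ in scale. For 7B12 minus 11C7, the 21 myelin genes all lie below 0, with a median of -0.32.

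Markers of the other cells of the slice were set beside these genes. Of all genes, 47.9% lay below the controls with 7B12, 43.9% below them with 11C7 and 51% below NT with IgG. With 7B12, 13 of 15 microglial and macrophage markers lay above the controls (median 0.34), and the array means of the list were 0.02 to 0.78 in 7B12, -0.48 to 0.35 in 11C7, -0.45 to 0.57 in IgG and -0.58 to 0.42 in NT. Lyz2, the lysozyme gene, stood 2.64-fold and Fcer1g, an Fc receptor subunit gene, 2.19-fold above the controls (limma, adjusted p = 0.401 and 0.489). The count was not particular to 7B12. With IgG 13 of 15 of these markers lay above NT (median 0.070), and with 11C7 11 of 15 lay above the controls (0.061). Astrocytes also use Ptprz1, and with 7B12 their markers lay below the controls in 9 of 13 (median -0.12). Below the controls with 11C7 lay 11 of 13 (-0.19), and below NT with IgG lay 9 of 13 (-0.015). Array means of this list were -0.35 to 0.06 in 7B12, -0.26 to 0.19 in 11C7, 0.01 to 0.15 in IgG and 0.12 to 0.23 in NT. Fibroblasts also use Pdgfra, and with 7B12 fibroblast and meningeal markers lay above the controls in 9 of 11 (median 0.48). Their array means were -0.50 to 0.51 in 7B12, -0.81 to 0.04 in 11C7, -0.77 to 0.12 in IgG and -0.40 to 0.21 in NT. In 7B12 the list mean stood 0.13, 0.79 and 0.08 from the controls of numbers 1, 2 and 3, so number 2 was the farthest. The controls also differed, with IgG at -0.08, -0.97 and -0.37 from NT. Mural markers lay above the controls with 7B12 in 6 of 9 (median 0.26), although the list mean stood -0.33, 0.40 and -0.16 from the controls of numbers 1, 2 and 3. Endothelial markers lay below the controls with 7B12 in 6 of 9 (-0.34). General neuron markers were even, with 6 of 12 below (0.0077), with a median array mean of -0.13 in 7B12, -0.03 in 11C7, -0.12 in IgG and 0.13 in NT, inside a spread from -1.53 to 1.16 that NT alone covered. No marker passed, and the part of any of these cells in the lineage values was not tested.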

How the data were processed

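The deposited table holds 1 ratio per probe set for each of 12 Affymetrix rat arrays. Per the submitters' processing notes, scans were read with GCOS 1.4 and summarised with MAS5. Per the labels and the design text, the authors normalized each chip and then each gene to the median of the control arrays in GeneSpring 7.2. In the deposited ratio values, 76.4% of probe sets have a median of 1 (within 0.0015) when all 12 arrays are taken, against 11.2% with the 6 control arrays. The divisor thus appears to be the all-array median, which does not alter differences between groups.

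From these ratios, log2 values less the array median were fitted with limma 3.58.1 in R 4.3.3 (lmFit on 4 group means, eBayes), without a replicate block, and p-values were adjusted by Benjamini-Hochberg over 31042 probe sets, 57 control probe sets being left out, at a threshold of 0.05. The code of the fit was run on simulated data, with arrays drawn independently and changes added to probe sets of below-median spread. That check held no shared replicate numbers, so it does not show how well small differences would be found here. Genes are means of their probe sets with 1 symbol: 67.1% of probe sets had 1 symbol, 436 had several and 9780 had none. The text names every gene listed at the opening and the 2 most alike in pattern. Of the 2 genes of smallest p per list and contrast it names examples, not all. The members and gene lists were chosen with earlier results of these data known. Alternatives changed the scaling, pseudocount (0.1), filter, arrays fitted, control group and block. Depth is not defined for ratios, and no present or absent calls were used.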

Additional observations from a re-analysis of the deposited data

How the results depend on the processing

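No lineage probe set passed in any contrast under any alternative tried. The number of calls over all probe sets moved from 0 to 1 for IgG minus NT with only probe sets of a 12-array median of at least 0.9, and to 1 for 7B12 minus controls with only the groups of that contrast fitted. It came to 928 by the one-way analysis of variance at an unadjusted p of 0.05 with 1.2-fold. Leaving out 1 array at a time gave 0 to 10 calls for 7B12 minus controls (10 without 11C7 1), 0 to 1 each for 11C7 minus controls, 7B12 minus 11C7, both antibodies minus controls and IgG minus NT, and 0 to 2 by the F test. The replicate numbers are not stated to mark shared animals. Deviations of same-numbered arrays from their group means correlated at 0.09 to 0.42 (18 pairs) and of other arrays at -0.29 to 0.08, and 12 of 12 arrays correlated best with their own number, a hint from the data and not from the design. With the replicate block there were 0 calls in every contrast, and 68 for 7B12 minus controls when only those groups were fitted, an alternative chosen after seeing the data, with no lineage probe set among them (smallest adjusted p = 0.307 by limma, Ptprz1 1388015_at). With the block and 1 array left out the calls were 0 to 99 for 7B12 minus controls, 0 to 27 for 7B12 minus 11C7 and 0 to 35 by the F test (the highest each without 11C7 1), 0 to 1 for 11C7 minus controls and IgG minus NT, and 0 for both antibodies. The cause was not tested.

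Signs of small differences turned. Under other settings the difference became 0.010 for Ptprz1 1368350_at with 11C7 (values as deposited), -0.0061 and -0.00020 for Pdgfra in IgG minus NT (quantile normalization; pseudocount), and 0.080 for Cspg4 and -0.012 for Sox10 with 7B12 against IgG alone. With 1 array left out, 7B12 minus controls ranged over -0.12 to 0.070 in Cspg4, -0.13 to 0.33 in Sox10, -0.21 to 0.18 in Nkx2-2 and -1.44 to 0.11 in Olig2 1398212_at. It kept its sign in Pdgfra (-0.54 to -0.24) and Ptprz1 1388015_at (-0.47 to -0.39). For 11C7 minus controls it ranged over -0.086 to 0.052 in Ptprz1 1368350_at and -0.017 to 0.17 in Olig1. For 7B12 minus 11C7 it ranged over -0.99 to 0.56 in Olig2 1398212_at. For IgG minus NT it ranged over -0.13 to 0.12 in Pdgfra, -0.078 to 0.015 in Ptprz1 1368350_at, -0.047 to 0.086 in Ptprz1 1388015_at, -0.080 to 0.096 in Olig1, -0.057 to 0.54 in Sox10 and -0.15 to 0.28 in Nkx2-2.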

Other observations

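Most genes of dividing cells, among them precursors, stood slightly above the controls in both antibody groups. With 7B12, 10 of 13 cycling genes lay above (median log2 difference 0.11) and with 11C7 12 of 13 did (0.13), but IgG also stood above NT in 12 of 13 (0.098). Of all genes, 47.9% lay below the controls with 7B12, 43.9% with 11C7, and 51% below NT with IgG. Number by number, the list mean stood 0.02, 0.15 and 0.30 from the controls with 7B12. With 11C7 it stood 0.20, 0.64 and -0.16 from them, so 11C7 3 was not above. The thymidylate synthase gene Tyms, which makes a DNA building block, stood 0.88 ± 0.25 above the controls with 7B12 (limma, unadjusted p = 0.00636, adjusted p = 0.514), 0.81 ± 0.25 above with 11C7 (adjusted p = 1.00) and 0.32 ± 0.29 above NT with IgG. None of the 13 genes passed in any contrast. Without 11C7 1, 9 of 13 lay above the controls with 11C7.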
